A study of Homo sapiens with 9 samples.

Results

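The genes described here are 59 protein-coding genes of human chromosome 8, from CLN8 near the tip of the short arm to HSF1 near the end of the long arm. They were listed by symbol because chromosome 8 transcripts had stood higher in cytarabine-resistant HL-60 cells than in parental ones, so the comparison of those groups describes the list and does not test it. All 59 were found among the 20637 genes of the table. Of the 59, 57 passed the filter on low values (a normalized read count of at least 10 in at least 3 of the 9 libraries), and the 2 that did not, ARHGEF10 and PTK2, are given below. HL-60 is an established line of acute myeloid leukaemia whose cells resemble promyelocytes, which are early granulocyte precursors. Polyadenylated RNA was sequenced from 3 biological replicates of each of 3 groups. HRA cells resist Ara-C (cytarabine), a nucleoside analogue that stops DNA synthesis once phosphorylated, and grew with 100 nM of it. HRD cells resist DNR (daunorubicin), an anthracycline that poisons topoisomerase II, and grew with 30 nM of it. The parental HL-60 cells are labelled with no drug. Each resistant state is represented by cells under 1 name, so the replicates show the spread within HRA or HRD cells and not between resistant lines, and resistance cannot be told apart from the presence of the drug.

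The listed genes share a chromosome and no single pathway. They encode parts of machines that most cells run continuously, such as the eIF3 translation initiation factor, RNA polymerases, the V-ATPase proton pump and the endosomal sorting complexes. A few have roles closer to blood cells, among them LYN, a Src family kinase of myeloid and B cells, and DOK2, a signalling adaptor. CTSB encodes the lysosomal protease cathepsin B. Many of their products work as subunits of complexes whose other subunits are encoded on other chromosomes, which allows members and partners of 1 complex to be set side by side. Extra copies of chromosome 8 are a recurrent finding in myeloid leukaemia. DNA was not analysed here.

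The libraries held between 20822709 and 66563328 reads, so that 3 reads corresponded to a normalized read count of 1.49 to 4.52. Replicate 1 of every group was the deepest. The promyelocyte markers MPO, PRTN3, AZU1, CTSG and CD33 were abundant, and ELANE was near 0 in all groups, with means of 1.59 in HRA, 0.858 in HRD and 1.88 in parental cells. The summed level of these 6 markers ran from 259040.4 to 288427 in HRA, from 210296 to 268439 in HRD and from 288495 to 331088 in parental libraries, and was mostly MPO. Of the other markers, CTSG had means of 4120 in HRA, 6728 in HRD and 10855 in parental cells and fell in HRA (−1.39 ± 0.09, adjusted p = 2.31e-05) and in HRD (−0.69 ± 0.09, adjusted p = 0.000409). PRTN3 fell in HRA (−1.64 ± 0.36, adjusted p = 0.0129) and CD33 rose there (0.30 ± 0.08, adjusted p = 0.0267). The part of these markers in the results was not tested. Summed markers of T, B, erythroid, epithelial and fibroblast cells stayed at or below 40.6 in all libraries. The share of all reads on protein-coding genes of chromosome 8, tested or not, was 2.79%, 2.81% and 2.71% in the HRA libraries. It was between 2.07% and 2.11% in the HRD libraries, and 1.86%, 1.87% and 2.02% in the parental libraries. The groups did not overlap in this share.

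In HRA cells the tested members lay above parental cells by a similar, modest amount. All 57 had a positive log2 fold change, from 0.02 for OPLAH to 1.17 for DOK2, with a median of 0.45 (a fold of 1.37) and an interquartile range of 0.38 to 0.61. The median over all 12569 tested genes was −0.01. In 48 members all 3 HRA libraries exceeded all 3 parental libraries, against 19.3% of all tested genes, and 9 members overlapped. Of the 57, 38 passed an adjusted p of 0.05 as higher and 0 as lower (limma; 51 and 0 at an unadjusted p under 0.05, 38 and 0 by edgeR, 42 and 0 by DESeq2, 42 and 0 with replicate number as a block), where 9.13% of all tested genes passed as higher and 6.1% as lower. The members that passed in limma with the block and not without it were CLN8, FDFT1, YWHAZ and JRK (adjusted p = 0.0466, 0.00365, 0.0337 and 0.0404). These counts restate how the genes were chosen. Measured per library against the parental mean, the median member stood 0.48, 0.45 and 0.44 higher on the log2 scale in the HRA libraries, 0.21, 0.23 and 0.08 higher in the HRD libraries, and at −0.02, −0.00 and 0.00 in the parental libraries. The 57 members made up 0.553%, 0.556% and 0.535% of normalized reads in HRA, 0.431%, 0.438% and 0.435% in HRD, and 0.370%, 0.386% and 0.410% in parental cells. The group means ran HRA above HRD above parental in 42 members, HRA above parental above HRD in 11, and HRD above HRA above parental in the other 4, which are ASPH, YWHAZ, EXOSC4 and SHARPIN. These orders were not counted over all tested genes, and the place of HRA above parental cells restates the choice of members.

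**Figure D1:**
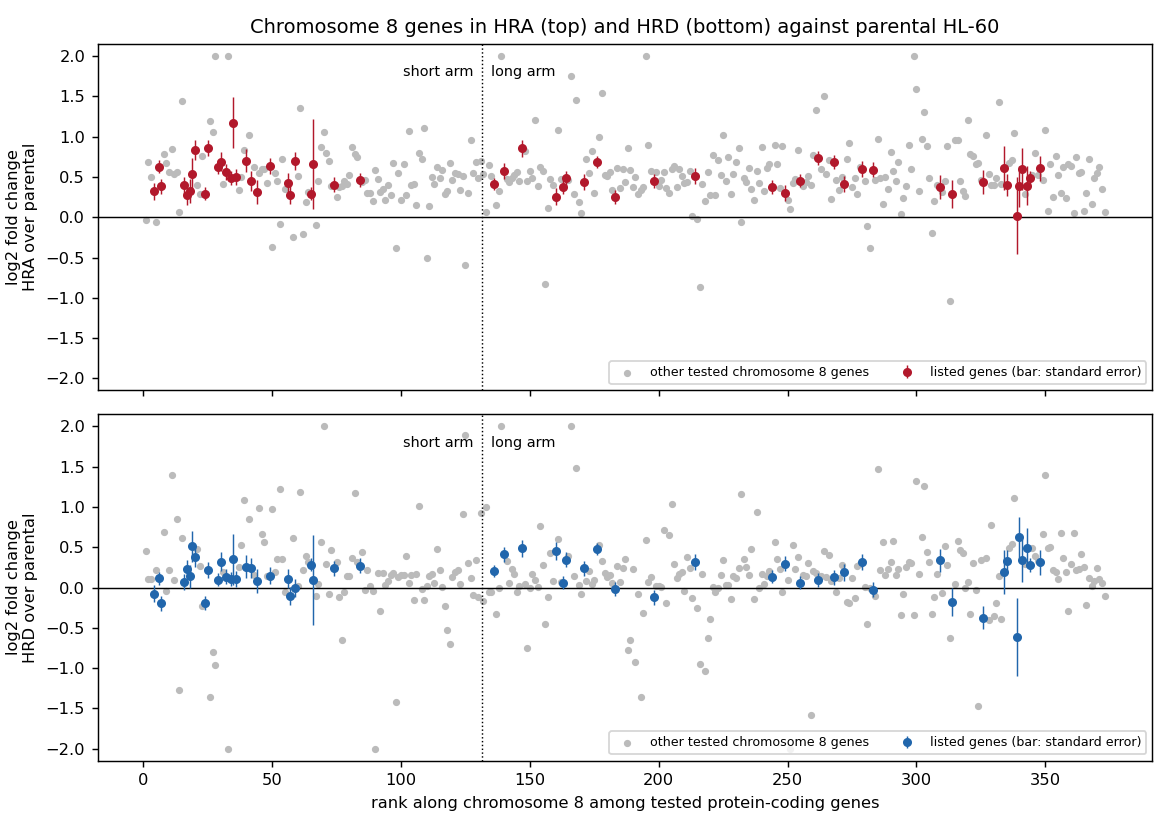
Log2 fold change of each tested protein-coding gene of chromosome 8, in HRA over parental cells (top) and HRD over parental cells (bottom), by rank along the chromosome; coloured points are the 57 tested listed genes with standard errors, grey points the 316 other genes, and the dotted line separates the arms after rank 131. Values beyond −2 or 2 are drawn at the edge (5 grey genes above in HRA, 3 above and 3 below in HRD). In HRA the coloured points lie above 0 on both arms, and in HRD they scatter closer to it.

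Among members in signalling and cell shape, LYN had normalized read counts of 1599.9, 1700.4 and 1575 in HRA, 1364, 1288 and 1134 in HRD, and 800.3, 975 and 928 in parental cells. No library of one group overlapped another, and the log2 fold change was 0.85 ± 0.10 (SE) in HRA. DOK2, an adaptor that restrains signalling from receptor and cytoplasmic tyrosine kinases in blood cells, had the largest difference in HRA on the log2 scale but few reads, 202 in the 3 HRA libraries, 140 in the 3 HRD libraries and 91 in the 3 parental libraries. Its counts were 60.7, 70.3 and 76.8 in HRA, 39.7, 46.7 and 31.0 in HRD, and 20.2, 27.0 and 49.5 in parental cells (1.17 ± 0.32). YWHAZ, the 14-3-3 zeta protein that binds phosphorylated partners, was at 16079, 15650.3 and 14745 in HRA, 16666, 16099 and 13775 in HRD, and 11465, 13426 and 12911 in parental cells. Both resistant groups lay above parental cells without overlap in YWHAZ and overlapped each other. BIN3, a BAR domain protein of membrane and actin organization, and PPP2R2A, a regulatory subunit of the phosphatase PP2A, had log2 fold changes of 0.64 ± 0.10 and 0.29 ± 0.08 in HRA. PPP3CC, a catalytic subunit of calcineurin, had 0.31 ± 0.15, and SCRIB, a polarity scaffold, 0.61 ± 0.27 with overlapping libraries.

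A pair of signalling members had too few reads to pass the filter and were not tested. PTK2, which encodes focal adhesion kinase, had 0 reads in all 3 HRA libraries, 1 read in HRD replicate 1, 0 reads in the other HRD libraries and 0 reads in the parental libraries. ARHGEF10, a guanine nucleotide exchange factor, had 7, 4 and 0 reads in HRA, 2, 0 and 4 in HRD, and 1, 0 and 0 in parental cells. PTK2 thus had no read in HRA to bear out its listing as raised there, and ARHGEF10 had 11 reads in HRA against 1 in parental cells, with 1 library of HRA and 2 of parental cells at 0.

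The lysosomal and autophagy members had a median log2 fold change of 0.57 over the 7 tested. CTSB stood at 1228, 1247 and 1117 in HRA, 989, 889 and 750.2 in HRD, and 705, 729 and 586 in parental cells. The 3 groups formed non-overlapping steps, with a log2 fold change of 0.83 ± 0.12 in HRA. RB1CC1, the FIP200 scaffold of the ULK complex that starts autophagosome formation, had 1648, 1435 and 1495 in HRA, 1376, 1282 and 1435 in HRD, and 980.4, 962 and 1139 in parental cells. Both resistant groups lay above the parental libraries, while the lowest HRA and the highest HRD library of RB1CC1 nearly coincided. ASAH1, the acid ceramidase that releases sphingosine from ceramide, had 0.69 ± 0.12 in HRA, and ATP6V1B2, a V1 subunit of the V-ATPase, 0.48 ± 0.09. CLN8, a receptor that carries lysosomal enzymes out of the endoplasmic reticulum, had 0.32 ± 0.11. MTMR9, a catalytically inactive myotubularin, was at 433, 404 and 437 in HRA, 448, 381 and 404 in HRD, and 308, 368 and 379 in parental cells, so both resistant groups exceeded parental cells and overlapped each other.

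BNIP3L, a mitophagy receptor that hypoxia induces, differed more between replicate numbers than between groups; it was singled out after its values were seen. It had 1071, 2112 and 610.4 in HRA, 462, 1728 and 527 in HRD, and 411, 1281 and 659 in parental cells. Replicate 2 was the highest library in every group. The log2 fold change of BNIP3L in HRA, 0.66 ± 0.56, was about the size of its standard error, and over the alternative settings it ran from 0.20 to 1.10. FDFT1, squalene synthase, the first enzyme committed to sterol synthesis, was also highest in replicate 2 of each group, at 10191, 13102 and 9056 in HRA, 8414, 13319 and 10185 in HRD, and 5916, 9249.7 and 7191 in parental cells.

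**Figure D2:**
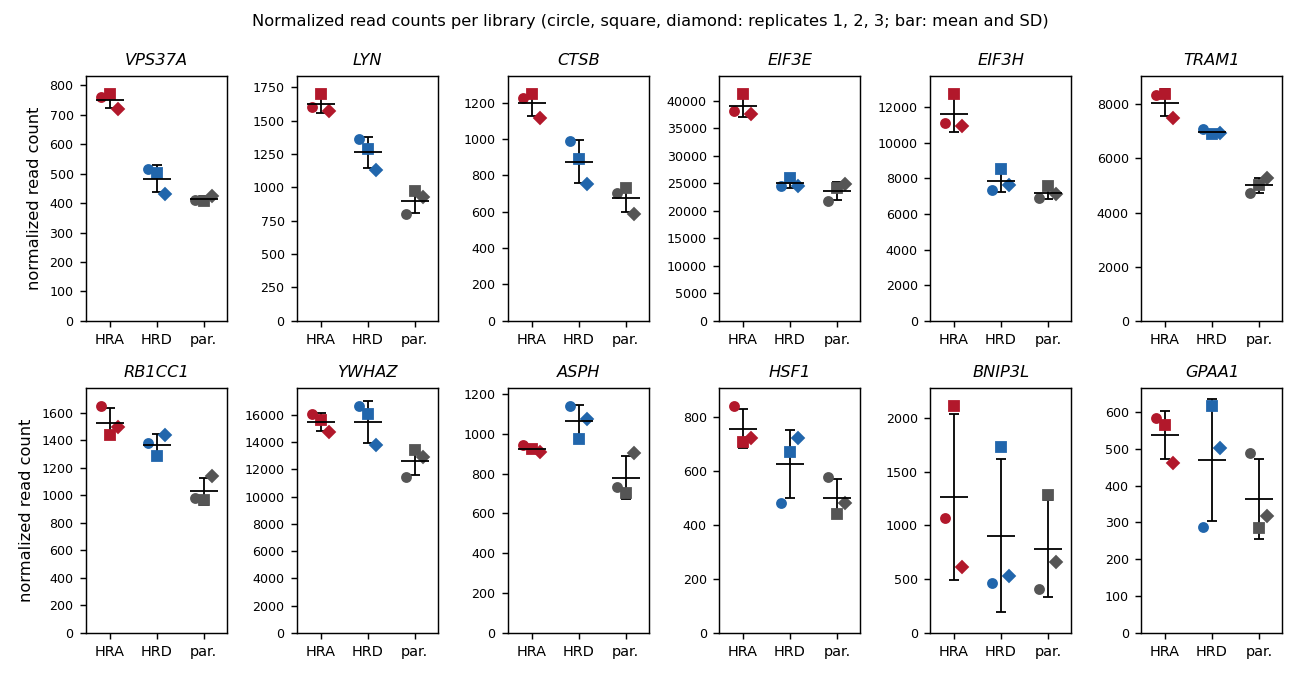
Normalized read counts of 12 members in each library (circle, square and diamond for replicates 1, 2 and 3), grouped as HRA, HRD and parental (par.), with the mean and SD as a bar; every axis starts at 0. LYN, CTSB, VPS37A and TRAM1 step down from HRA to HRD to parental cells without overlap, EIF3E and EIF3H stand apart in HRA, replicate 2 is high for BNIP3L in every group, and replicate 1 of HRD is low for GPAA1 and HSF1.

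The members in secretion, nuclear transport and endosomal sorting had the highest median of the role groups together with signalling, 0.61 over 10 tested genes. VPS37A, a subunit of the ESCRT-I complex that sorts ubiquitinated cargo into endosomal vesicles, was at 759, 771 and 719 in HRA, 516, 502 and 431 in HRD, and 409.7, 406 and 424 in parental cells (0.86 ± 0.10 in HRA). The HRA libraries of VPS37A stood well above both other groups, and the HRD libraries just above the parental ones. TRAM1, which helps nascent secretory proteins enter the endoplasmic reticulum, had 8338, 8385 and 7479 in HRA, 7080.3, 6909.7 and 6925 in HRD, and 4733, 5028 and 5291 in parental cells (0.68 ± 0.08). REEP4, which keeps endoplasmic reticulum away from mitotic chromosomes, had 520.0, 494 and 484 in HRA, 305, 407 and 399 in HRD, and 342, 267 and 313 in parental cells (0.70 ± 0.14). The 3 groups of TRAM1 did not overlap, whereas REEP4 separated HRA from the other groups, which overlapped each other. ENTPD4, a Golgi and lysosomal nucleotidase, had 0.70 ± 0.11, PCM1, a scaffold of centriolar satellites, 0.62 ± 0.08, and XPO7, a nuclear exportin, 0.50 ± 0.10. DERL1, a membrane protein of endoplasmic reticulum-associated degradation, had 0.60 ± 0.10, LEPROTL1, an endosomal membrane protein, 0.46 ± 0.09, and CHMP7, an ESCRT-III related protein of nuclear envelope sealing, 0.43 ± 0.12. GPAA1, a subunit of the GPI transamidase, had 0.60 ± 0.27 with overlapping libraries.

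Of the members in transcription, 9 were tested, with a median of 0.45 in HRA. HSF1, the master regulator of the heat-shock response, had 841, 709 and 722 in HRA, 482, 670.3 and 722 in HRD, and 576, 439 and 481 in parental cells. The HRA libraries of HSF1 exceeded the parental ones (0.61 ± 0.16), and the HRD libraries overlapped both. ATAD2, a bromodomain ATPase of chromatin, had 0.59 ± 0.09, INTS10, a subunit of the Integrator complex, 0.56 ± 0.10, and MAF1, the repressor of RNA polymerase III, 0.48 ± 0.09. The polymerase subunits POLR3D, of RNA polymerase III, and POLR2K, shared by all 3 nuclear polymerases, had 0.45 ± 0.12 and 0.37 ± 0.08. ELP3, the catalytic subunit of Elongator, and TAF2, a subunit of TFIID, each had 0.41 in HRA. JRK, the human homologue of the mouse jerky gene and a DNA-binding protein, had 1016, 869.8 and 1216 in HRA, 793, 577 and 877 in HRD, and 817, 732 and 983 in parental cells. All 3 groups overlapped in JRK.

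The RNA processing and translation members held the most abundant gene of the list. EIF3E, a subunit of eIF3, was at 38154, 41221 and 37659.9 in HRA, 24589, 25979 and 24529 in HRD, and 21732, 24084 and 24823 in parental cells (0.73 ± 0.09 in HRA). Its neighbour in the same complex, EIF3H, had 11140.3, 12749 and 10926 in HRA, 7372, 8552 and 7608 in HRD, and 6880.3, 7552 and 7119 in parental cells (0.69 ± 0.09). Both eIF3 subunits therefore stood apart in HRA, with HRD and parental libraries overlapping. STAU2, a double-stranded RNA-binding protein of RNA transport, had 1389.8, 1468 and 1358 in HRA, 1241, 1178 and 1079 in HRD, and 1106, 1253 and 1184 in parental cells (0.25 ± 0.09). CNOT7, a deadenylase of the CCR4-NOT complex, had 0.29 ± 0.08, PUF60, a splicing factor, 0.40 ± 0.13, and EEF1D, the delta subunit of elongation factor 1, 0.44 ± 0.14. AGO2, the slicing Argonaute, and EXOSC4, a subunit of the RNA exosome, each had 0.38 in HRA with overlapping libraries. EEF1D is the member whose HRD mean lay furthest below the parental mean in read count, at 3909, 5762 and 5166 in HRD against 7568, 5585 and 5974 in parental cells, which overlap (log2 fold change −0.37 ± 0.14, adjusted p = 0.0878).

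The remaining role groups were metabolism and mitochondria (8 tested, median 0.42 in HRA), ubiquitin and its relatives (4, median 0.42) and genome maintenance (3, median 0.40). ASPH, an endoplasmic reticulum protein whose long form hydroxylates aspartate and asparagine, was at 944, 923 and 908 in HRA, 1139.5, 975 and 1073 in HRD, and 732, 702 and 904 in parental cells. ASPH was the 1 member whose HRA libraries all lay below the HRD libraries, while 38 members had all HRA libraries above all HRD libraries and 18 overlapped. Of all tested genes, 24.2% lay above and 22.8% below in this way. The members were listed for standing high in the same HRA libraries, so this count also reflects how they were chosen. MTFR1, of mitochondrial shape, had 0.49 ± 0.09 in HRA, AZIN1, which protects ornithine decarboxylase by binding its antizyme, 0.45 ± 0.08, and IMPA1, inositol monophosphatase, 0.45 ± 0.09. AGPAT5, an acyltransferase of phosphatidic acid synthesis, had 0.38 ± 0.09, and ARMC1, which is found on mitochondria, 0.38 ± 0.09. COPS5, the catalytic subunit of the COP9 signalosome, had 0.44 ± 0.10, UBE2V2, a partner of the ubiquitin-conjugating enzyme UBE2N, 0.41 ± 0.08, OTUD6B, a deubiquitinase, 0.51 ± 0.10, and SHARPIN, of the linear ubiquitin ligase, 0.39 ± 0.24. MCPH1, a regulator of chromosome condensation, had 0.63 ± 0.08, PINX1, a telomerase inhibitor, 0.40 ± 0.11, and NEIL2, a DNA glycosylase of base excision repair, 0.33 ± 0.15.

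At the low end of the list, OPLAH, 5-oxoprolinase of the glutathione cycle, had overlapping values in all 3 groups. It had 16.8, 13.5 and 7.31 in HRA, 4.46, 6.03 and 13.9 in HRD, and 7.86, 12.3 and 16.5 in parental cells, from 40, 26 and 35 reads in the 3 libraries of HRA, HRD and parental cells. Its HRA value changed sign with the settings, between −0.24 and 0.34, whereas the other 56 tested members stayed above 0 under all 13 alternative settings. R3HCC1 was at 607, 529 and 530.0 in HRA, 441, 426 and 408 in HRD, and 520.2, 421 and 436 in parental cells, with HRA just above the parental libraries (0.28 ± 0.12).

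HRD cells were compared with parental cells as a contrast that the list was not chosen on, although it uses the same parental libraries. Of the 57 members, 12 rose in HRD (21.1%, where 10.7% of all tested genes rose), and 0 fell, where 12% of all tested genes fell. At an unadjusted p under 0.05 the counts were 20 and 2, edgeR called 12 and 0 and DESeq2 13 and 0. In 18 members (31.6%) all HRD libraries lay above all parental libraries, against 17.1% of all tested genes, and in 0 below, against 18.2%. The median log2 fold change was 0.19 (a fold of 1.14), against 0.01 over all tested genes, and the members ran from −0.62 to 0.62 with 46 positive and 11 negative.

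TRAM1 rose in HRD cells by a log2 fold change of 0.48 ± 0.08 (adjusted p = 0.00126), LYN by 0.49 ± 0.10 (adjusted p = 0.00595), RB1CC1 by 0.41 ± 0.10 (adjusted p = 0.0102) and ASPH by 0.45 ± 0.11 (adjusted p = 0.0123). These 4 calls held under all 13 alternative settings. CTSB rose by 0.38 ± 0.12 (adjusted p = 0.0460), a call lost without HRD replicate 1 or 2 or parental replicate 1 or 3, with an adjusted p of up to 0.150. MTFR1 (0.34, adjusted p = 0.0223), PPP2R2A (0.28, 0.0282), DERL1 (0.32, 0.0360), MAF1 (0.28, 0.0393), YWHAZ (0.30, 0.0437), OTUD6B (0.32, 0.0456) and LEPROTL1 (0.27, 0.0480) also rose, each against the adjusted p given. Each of these 7 lost its call without at least 1 library, and the highest adjusted p was 0.0718 for MTFR1, 0.0838 for PPP2R2A, 0.131 for DERL1, 0.156 for MAF1, 0.147 for YWHAZ, 0.129 for OTUD6B and 0.126 for LEPROTL1. The count of members called in HRD was 5 without HRD replicate 2 or without parental replicate 3, and 6 without parental replicate 1. Without HRD replicate 1 there were 2 members called as lower in HRD and without HRD replicate 2 there was 1.

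The members with the smallest HRD calls differed in how near HRD came to HRA. PPP2R2A was at 2058, 2006 and 2036 in HRA, 2190.3, 1866 and 2022 in HRD, and 1575, 1729 and 1686 in parental cells. DERL1 had 1837, 1864 and 1786 in HRA, 1610.3, 1633 and 1294 in HRD, and 1191, 1256 and 1177 in parental cells. MAF1 had 1208, 1196 and 1246 in HRA, 1024, 1181 and 989 in HRD, and 883, 856 and 875 in parental cells, and LEPROTL1 had 1639.6, 1558 and 1427 in HRA, 1447, 1286 and 1326 in HRD, and 1064, 1197 and 1097 in parental cells. HRD overlapped HRA in PPP2R2A and LEPROTL1, and lay between HRA and parental cells without overlap in DERL1 and MAF1. In all, 11 members showed 3 non-overlapping steps from HRA through HRD to parental cells, namely MCPH1, CTSB, VPS37A, INTS10, UBE2V2, RB1CC1, LYN, MTFR1, TRAM1, DERL1 and MAF1. Such steps were not counted over all tested genes, so it is not known whether they are more frequent among the members. That HRA lies above parental cells in them follows from how the genes were chosen.

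The members were then read in chromosomal order, in 5 stretches. On the short arm, the median log2 fold change of 27 tested members was 0.49 in HRA and 0.14 in HRD, with 3 called higher in HRD. That is 11.1%, near the 10.7% of all tested genes called higher in HRD. On the long arm, 30 members had 0.44 in HRA and 0.26 in HRD, with 9 (30.0%) called higher in HRD. The difference between the arms was not tested. From CLN8 to CTSB the median of the 8 tested members was 0.39 in HRA and 0.13 in HRD, and from CNOT7 to LEPROTL1 the 19 tested members had 0.50 and 0.14. From UBE2V2 to IMPA1 the 10 members had 0.44 in HRA and 0.29 in HRD, where 5 of the 10 rose. From OTUD6B to ATAD2 the 9 members had 0.51 in HRA and 0.14 in HRD, and from AGO2 to HSF1 the 11 tested members had 0.40 and 0.31.

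The last stretch, from AGO2 to HSF1, was less even between libraries than the others. Its median member stood 0.48, 0.42 and 0.39 above the parental mean in the HRA libraries, at −0.04, 0.44 and 0.45 in the HRD libraries, and at 0.26, −0.18 and −0.04 in the parental libraries. The 29 other tested genes of the same stretch had medians of 0.76, 0.54 and 0.52 in HRA, −0.28, 0.40 and 0.43 in HRD, and 0.23, −0.19 and 0.01 in parental libraries. Replicate 1 was thus the low library in HRD and the high library in parental cells, for members and their neighbours alike. GPAA1, singled out after its values were seen, had 584, 565 and 462 in HRA, 288, 616 and 502 in HRD, and 488, 285 and 316 in parental cells. EXOSC4, chosen in the same way, had 212, 196 and 196 in HRA, 153, 286 and 307 in HRD, and 202, 128 and 142 in parental cells. In this stretch 2 of 11 members (18.2%), MAF1 and HSF1, passed in HRA, with JRK as a further one under the replicate block, and 1 (9.09%), MAF1, in HRD. Of all tested genes, 9.13% passed as higher in HRA and 10.7% in HRD.

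**Figure D3:**
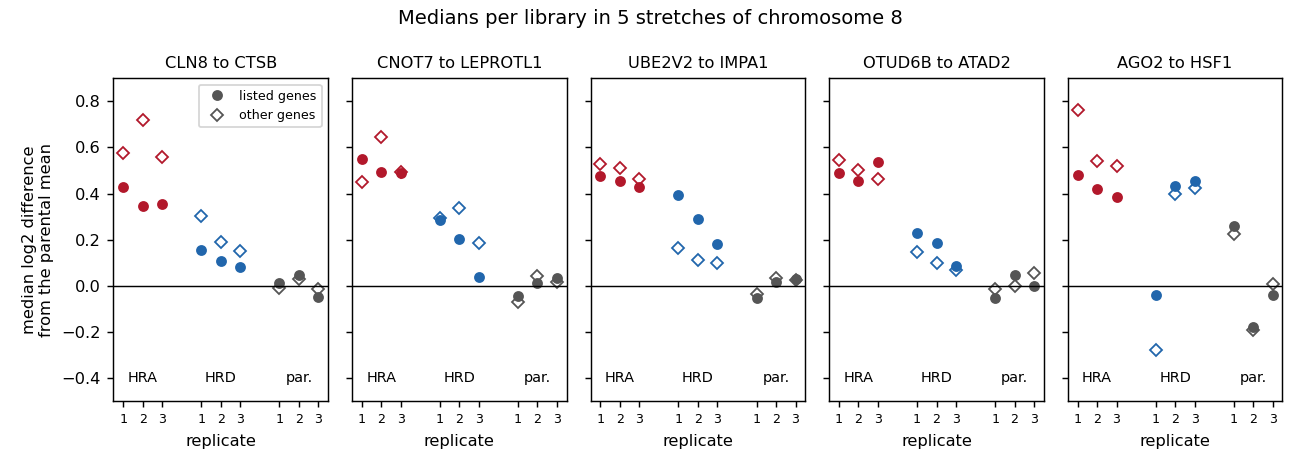
Median log2 difference from the parental mean in each library (replicates 1 to 3 of HRA, HRD and parental cells), for listed genes (filled circles) and other tested protein-coding genes (open diamonds) of 5 stretches of chromosome 8 named by their first and last listed gene. HRA medians lie above those of parental libraries in each stretch, and from AGO2 to HSF1 replicate 1 of HRD lies at −0.04 for listed genes while the other HRD replicates lie at 0.44 and 0.45.

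Other genes of the chromosome were compared to see whether the list differs from its surroundings. The 316 other tested protein-coding genes of chromosome 8 had a median log2 fold change of 0.50 in HRA, close to the 0.45 of the members, and 178 rose while 2 fell. These are 56.3% and 0.633%, against 9.13% and 6.1% of all tested genes. The count of risen genes was 118 without HRA replicate 1 and 200 with the replicate block. The short arm (104 genes, median 0.49, 57 risen and 1 fallen) and the long arm (212 genes, median 0.50, 121 risen and 1 fallen) were alike in these values. In HRD the same 316 genes had a median of 0.16, with 56 risen and 17 fallen (17.7% and 5.38%, against 10.7% and 12% of all tested genes). Replicates of a gene varied less among the members, with a median coefficient of variation of 7.62% against 10.5% in the other chromosome 8 genes and 10.5% in all tested genes, a difference that was not tested. Members with a parental mean under 100 numbered 2 of 57, against 69 of 316 of the other chromosome 8 genes.

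Genes of chromosome 8 that fell in HRA were FGFR1, a fibroblast growth factor receptor, and TOX, an HMG-box factor of lymphocyte development. FGFR1 had 746, 789 and 842 in HRA, 1167, 1124 and 1143 in HRD, and 1144, 1167 and 1076 in parental cells, and its log2 fold change in HRA was −0.51 ± 0.08 (adjusted p = 0.00265). TOX had 60.7, 74.4 and 71.9 in HRA, 85.8, 79.8 and 105 in HRD, and 117, 149.7 and 106 in parental cells, with −0.83 ± 0.20 in HRA (adjusted p = 0.0175). The TOX call was lost without HRA replicate 1 or parental replicate 2, with an adjusted p of up to 0.0811. MYC, the long-arm oncogene that is amplified in HL-60, had 22671, 18763 and 19969.7 in HRA, 15995, 14957 and 18298 in HRD, and 19054, 14751 and 18257 in parental cells. Its log2 fold change was 0.24 ± 0.12 in HRA (adjusted p = 0.191) and −0.08 ± 0.12 in HRD (adjusted p = 0.699).

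On the log2 scale, several genes of the chromosome outside the list rose in HRA by more than any member did. The 4 given here had the largest rises among those with a mean of at least 100 in HRA, and larger differences in less abundant genes are left out. ZNF704, a zinc finger gene, had 788, 805 and 819.9 in HRA, 76.9, 40.7 and 64.1 in HRD, and 43.8, 54.0 and 24.0 in parental cells (adjusted p = 2.31e-05 in HRA). LPL, lipoprotein lipase, had 1487, 1461 and 1202 in HRA, 0 reads in the 3 HRD libraries, and 169, 145 and 24.0 in parental cells (adjusted p = 0.00112 in HRA). TMEM71, a transmembrane protein, and MYBL1, a MYB family transcription factor, rose in both resistant groups. TMEM71 had 163, 184 and 180.3 in HRA, 114, 164 and 165 in HRD, and 47.7, 58.9 and 67.4 in parental cells. MYBL1 had 112, 115 and 95.0 in HRA, 120.1, 99.4 and 109 in HRD, and 35.4, 44.2 and 36.0 in parental cells. These 4 changes were several times the size of the members' median, with log2 fold changes of 4.35 for ZNF704, 4.02 for LPL, 1.59 for TMEM71 and 1.46 for MYBL1.

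Members that are subunits were set beside the other genes of their complexes and pathways, listed as 194 partner genes of 26 complexes or pathways, of which 188 were tested. The 180 partners on other chromosomes had a median log2 fold change of −0.00 in HRA, where 8 rose and 11 fell. These are 4.44% and 6.11% of the partners, against 9.13% and 6.1% of all tested genes. Once replicate number entered the fit as a block, 20 partners rose and 16 fell. DESeq2 called 14 of them higher, and between 2 and 8 were higher and between 5 and 12 lower when a single library was left out, the smallest counts being without HRA replicate 2. The higher count was 3 without HRA replicate 1 or 3 or parental replicate 3, and the lower count 6 without HRA replicate 1 or parental replicate 2. The 8 partners that themselves lie on chromosome 8 had a median of 0.44 in HRA, and 5 of them rose, namely the Integrator subunits INTS8 (0.52) and INTS9 (0.42), the V-ATPase subunits ATP6V1C1 (0.39) and ATP6V1H (0.47), and PAG1 (0.89), a membrane adaptor that recruits the Src inhibitor CSK. The call of INTS9 was lost without HRA replicate 1 or 2 (adjusted p of up to 0.0590) and that of ATP6V1C1 without HRA replicate 1 (0.0609). VPS28 (0.30), PPP2CB (0.20) and SQLE (0.57) did not pass in HRA. In HRD, 18 of the 180 partners elsewhere rose (10.0%) and 19 fell (10.6%), near the 10.7% and 12% of all tested genes. On chromosome 8, 3 of the 8 partners rose in HRD, VPS28 (0.68), SQLE (0.58) and ATP6V1H (0.33). The SQLE call was lost without HRD replicate 2 or 3 or parental replicate 1 or 3 (adjusted p of up to 0.167), and that of ATP6V1H without HRD replicate 2 or parental replicate 2 (up to 0.0965).

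Within complexes the chromosome 8 subunits stood above most of their partners in HRA, but not above all of them. Partners elsewhere stood higher in several complexes, among them POLR2E (0.50) and POLR2L (0.52) beside POLR2K (0.37), and TAF12 (0.53) beside TAF2 (0.41). The complexes given next were picked and include both kinds. In eIF3, EIF3E and EIF3H had 0.73 and 0.69, whereas the 11 subunits encoded elsewhere had a median of 0.17, between −0.15 and 0.31, and 0 passed (limma; 3 higher and 0 lower at an unadjusted p under 0.05, 0 by edgeR, 1 higher by DESeq2, 2 higher with the replicate block). In the COP9 signalosome, COPS5 had 0.44 and the 8 subunits elsewhere a median of −0.17, of which 0 passed (4 lower at an unadjusted p under 0.05, 0 by edgeR, 1 lower by DESeq2). In Integrator, INTS10 had 0.56 and the 11 subunits elsewhere a median of −0.02, with INTS7 fallen by 0.37 on the log2 scale (adjusted p = 0.0165, up to 0.0846 without HRA replicate 1 or parental replicate 2). In RNA polymerase III, POLR3D had 0.45 while the 12 partners elsewhere had a median of −0.01, CRCP (0.26) higher and POLR3B (−0.45) lower; with the replicate block 1 was higher and 3 were lower. The CRCP call was lost without any 1 of the 6 libraries (adjusted p of up to 0.143), and that of POLR3B without HRA replicate 2 or parental replicate 3 (up to 0.0770). In the RNA exosome, EXOSC4 had 0.38, which did not pass either (limma, adjusted p = 0.334). The 10 exosome subunits elsewhere had a median of −0.13, of which 0 passed (1 higher and 1 lower at an unadjusted p under 0.05, 0 by edgeR and DESeq2). Among them EXOSC5, at 0.48, stood above EXOSC4. Whether a subunit differed from its partners was not tested, since the subunits were listed for being higher. The other chromosomes were not alike in HRA. Median log2 fold changes of their tested protein-coding genes ran from −0.15 on chromosome 4 to 0.27 on chromosome 7 and 0.30 on chromosome 19. Whether partners followed the chromosome they lie on was not tested.

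**Figure D4:**
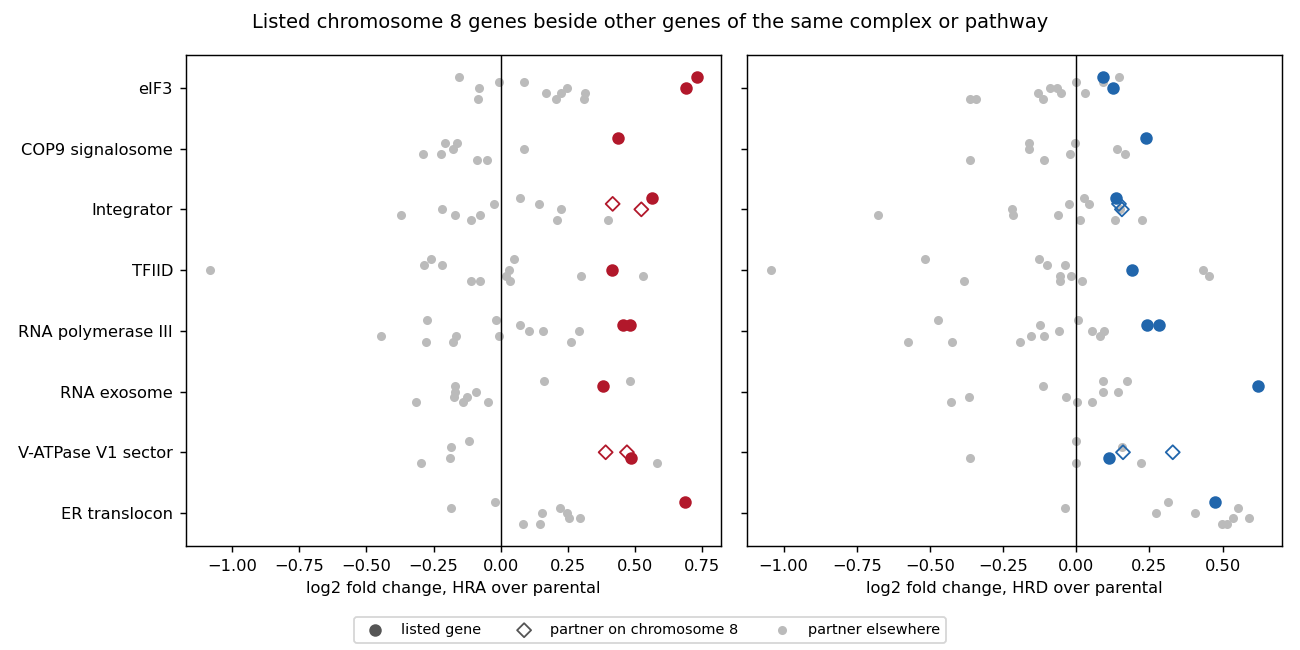
Log2 fold changes in HRA (left) and HRD (right) over parental cells for the genes of 8 complexes or pathways, with listed chromosome 8 genes as filled coloured circles, their partners on chromosome 8 as open diamonds and partners on other chromosomes as grey points. In HRA both eIF3 members, at 0.73 and 0.69, lie right of all 11 eIF3 partners, and in HRD both lie among them.

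Partners on other chromosomes changed in both directions in HRA. TAF7, a TFIID subunit, had 708, 713 and 808 in HRA, 714, 789 and 787 in HRD, and 1502, 1613 and 1601 in parental cells, and fell in HRA (−1.08 ± 0.09, adjusted p = 5.82e-05) and in HRD (−1.04 ± 0.09, adjusted p = 1.77e-05). FYN, a Src family kinase, had 439, 468 and 418 in HRA, 722, 788 and 699 in HRD, and 721, 914 and 1055 in parental cells, and fell in HRA to a fold of 0.499 (SE of the log2 fold change 0.13, adjusted p = 0.000849). SYK, the kinase that couples immune receptors downstream of Src kinases, rose in HRA, with 6353, 7678 and 6486 in HRA, 5834, 6359.9 and 5121 in HRD, and 3855, 5305 and 3489 in parental cells (0.72 ± 0.15, adjusted p = 0.00785). The PP2A subunit PPP2R5A fell by 0.66 and the Scribble module scaffold DLG1 fell by 0.54 on the log2 scale in HRA (adjusted p = 0.00114 and 0.00299). The V-ATPase subunit ATP6V1F rose in HRA (0.58 ± 0.14, adjusted p = 0.0170), a call lost without HRA replicate 2 or parental replicate 3 (up to 0.0751), while ATP6V1A fell by 0.30 (adjusted p = 0.0372), a call lost without HRA replicate 1, 2 or 3 or parental replicate 1 or 2 (up to 0.136).

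In HRD cells, LYN rose beside other kinases and regulators of the Src family pathway. Of 11 tested partners of this pathway on other chromosomes, 7 rose and 0 fell in HRD, where 10.7% of all tested genes rose and 12% fell. Those that rose included FGR, SYK, CSK, BTK, PTPN6 and INPP5D, with log2 fold changes in HRD of 0.47 for SYK, 0.43 for CSK, 0.38 for BTK, 0.39 for PTPN6 and 0.31 for INPP5D. FYN (−0.27), DOK1 (0.10), DOK3 (0.13) and RASA1 (0.29) did not pass in HRD. FGR, a Src family kinase of myeloid cells, had 30.7, 96.0 and 36.5 in HRA, 117, 269.6 and 88.7 in HRD, and 16.3, 42.9 and 10.5 in parental cells (2.78 ± 0.57 in HRD, adjusted p = 0.00510). Without single libraries the HRD calls of CSK (HRD replicate 2 or 3, parental replicate 2 or 3), SYK and INPP5D (HRD replicate 1 or 2, parental replicate 1 or 3 for both) were lost, with adjusted p of up to 0.0966, 0.136 and 0.0995.

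TRAM1 rose in HRD together with genes of the endoplasmic reticulum translocon, of which 5 of 9 on other chromosomes rose and 0 fell in HRD. Of all tested genes, 10.7% rose and 12% fell in HRD. The channel subunit SEC61A1 had 8948, 8961 and 8410.1 in HRA, 12044, 11338 and 10583 in HRD, and 8199, 8812 and 6866 in parental cells (0.51 ± 0.10 in HRD, adjusted p = 0.00342). The other 4 were SSR1 (0.50), SSR2 (0.54) and SSR3 (0.41), which form part of the translocon-associated complex, and SEC63 (0.31), whose call was lost without HRD replicate 1 or 2 or parental replicate 1 (adjusted p of up to 0.0852). In HRA 0 of these 9 passed (limma; 2 higher and 1 lower at an unadjusted p under 0.05, 0 by edgeR and DESeq2, 2 higher with the replicate block), while TRAM1 stood at 0.68. Further partners that fell in HRD were PPP2R2D of PP2A (−0.89 ± 0.07, adjusted p = 1.19e-05), INTS2 of Integrator (−0.68 ± 0.10, adjusted p = 0.000731) and POLR3F of RNA polymerase III (−0.57 ± 0.09, adjusted p = 0.00138).

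The targets of HSF1 were read as a separate list of 12 heat-shock genes, 11 of which were in the table and tested. In HRA, where HSF1 had a log2 fold change of 0.61, 0 of the 11 passed in either direction (limma; 1 higher and 1 lower at an unadjusted p under 0.05, 0 by edgeR, 1 lower by DESeq2 and with the replicate block) and their median was −0.11. Of all tested genes, 9.13% passed as higher and 6.1% as lower in HRA, and 10.7% and 12% in HRD. In HRD, where HSF1 had 0.31 (adjusted p = 0.189), 2 of the 11 heat-shock genes rose and 0 fell, and the median was 0.24. The risen genes were the small heat-shock protein HSPB1, with 2835, 2631 and 2371 in HRA, 1957, 4522 and 4429.6 in HRD, and 1829, 1186 and 1759.6 in parental cells, and the co-chaperone DNAJA1, with 13041, 10724 and 12406 in HRA, 21796, 17786 and 16345 in HRD, and 16074, 13732 and 11896 in parental cells. Their log2 fold changes in HRD were 1.12 ± 0.28 for HSPB1 (adjusted p = 0.0134) and 0.42 ± 0.13 for DNAJA1 (adjusted p = 0.0414). Leaving out single libraries left 0 to 3 heat-shock genes risen in HRD, with 0 without HRD replicate 2 and 1 without HRD replicate 1 or without parental replicate 2 or 3.

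Exons of 13 members overlap those of another gene of the table in the GENCODE v29 annotation, in 11 cases on the opposite strand, and the sources used here do not say whether counting used strand. Between CNOT7 and VPS37A 204 bases of exon are shared on opposite strands, and BIN3 shares 1097 bases with CCAR2, which has more reads. The values of these members may contain reads of the overlapping gene.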

How the data were processed

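Polyadenylated RNA of 3 HRA, 3 HRD and 3 parental HL-60 samples was sequenced from stranded libraries, per the labels. Per the submitters' processing notes, the tools were HTSeq 0.11.1, DESeq2, Picard, TopHat2 2.1.1, Cufflinks 2.2.1 and Bowtie2 2.3.5.1, and the build was hg19; their roles and order and the gene annotation are not given in the sources used here. The signal in the table the authors deposited holds reads counted on each gene and scaled by 1 size factor per library (normalized read counts). Values were whole multiples of 1 constant per library (tolerance 0.001), so whole reads were recovered.

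Testing covered the 12569 genes that reached a value of 10 in 3 or more of the 9 libraries, which hold 99.97% of reads. All 9 libraries entered 1 linear model of log2(value + 1), made with limma-trend (limma 3.58.1, R 4.3.3), and p-values were adjusted by Benjamini-Hochberg over all tested genes at a threshold of 0.05. Folds on this scale understate changes of low genes. Errors are standard errors for log2 fold changes and SD over 3 replicates elsewhere. An exact permutation of 3 against 3 libraries cannot go below p = 0.1. The test was also run on simulated data. Chromosomes and gene order came from the RefSeq table of GRCh38.p14 by symbol (12299 of 12569 tested genes matched), and exon overlaps from the GENCODE v29 annotation; no coordinates are printed.

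Alternatives were a pseudocount of 10, no filter, edgeR 4.0.16 (TMM) and DESeq2 1.42.0 on recovered reads, scaling outside chromosome 8, a fit of 2 groups only, a replicate block and leaving out each library. Deviations of same-numbered HRA and parental libraries correlated at 0.22, 0.38 and 0.14, so the block is given beside the HRA counts of calls in the text that it changes, apart from the counts by arm. Values in every library are given for the 6 largest and 6 smallest HRA differences, members called in HRD (5 largest and 5 smallest), and LYN, CTSB, YWHAZ, HSF1 and PTK2; of partners and other chromosome 8 genes, for the called ones with the largest changes, and MYC. Of these, 1 gene is not reported here. Members, lists and rules were chosen with earlier results of these data known. Python 3.11.15 with pandas 2.3.3, numpy 2.4.6 and matplotlib 3.10.9 made tables and figures.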

Additional observations from a re-analysis of the deposited data

How the results depend on the processing

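When single libraries were left out, 26 to 35 members were called higher and 0 lower in HRA, with a median log2 fold change of 0.44 to 0.48. Scaling on genes outside chromosome 8 moved no library by more than 0.02 on the log2 scale. In HRD, 4 members were called higher with 2 groups only and 6 with no filter, against 12, and leaving out single libraries gave 5 to 10 higher and 0 to 2 lower. For the other chromosome 8 genes in HRA, a pseudocount of 10 gave a median of 0.47 against 0.50, and leaving out single libraries gave 118 to 154 higher and 1 to 2 lower. Partners on other chromosomes called higher in HRA numbered 14 by DESeq2, 5 with no filter and 2 to 8 without single libraries, against 8, and those called lower 5 to 12 without single libraries, against 11. In HRD the partners called lower numbered 12 with 2 groups only and 11 to 21 without single libraries, against 19, and their median was 0.011 to 0.063. Of HSF1 targets in HRA, 1 was called higher with 2 groups only and 1 lower with 2 groups only and by DESeq2, against 0 in each direction, and the median without single libraries was −0.15 to −0.015. In HRD, 1 was called higher with 2 groups only and 1 with no filter, against 2, and 0 to 3 without single libraries. The cause of these shifts was not tested, beyond the fewer libraries or the larger number of genes that these settings use. Apart from the replicate block, the other settings kept these counts within 1.5 times.

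With the replicate number as a block, 42 members were called higher in HRA and 15 in HRD, 20 partners elsewhere were higher in HRA and 30 in HRD, 1 HSF1 target was lower in HRA, and FDFT1 passed in HRD (adjusted p = 0.00291, against 0.0837). Deviations of same-numbered HRD and parental libraries correlated at −0.08, 0.26 and 0.29, and those of same-numbered HRA and HRD libraries at −0.03, 0.41 and 0.23. Replicate 2 correlated positively in every pair of groups. These values do not settle whether HRD and parental replicates of 1 number belong together. In HRD the block gave 73 other chromosome 8 genes higher (56 without it) and 3 HSF1 targets (2 without it). Of partners on other chromosomes, 6 translocon genes (5 without it) and 8 of the Src family pathway (7 without it) were higher with it. In squalene and cholesterol synthesis 7 of 10 were higher (1 without it). ASAH1 and COPS5 also passed in HRD with the block. The remaining HRD counts, such as those by arm, are given without it only. For PTK2, ARHGEF10 and OPLAH, the few reads counted on them limit what could be seen.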
